A study of Saccharomyces cerevisiae with 24 samples.

Results

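The genes described here are 46 nucleolar ribosome biogenesis genes of budding yeast (Saccharomyces cerevisiae), which encode the processing and assembly factors of ribosomal RNA. They were listed by systematic name for their roles, and all 46 were found among the 7218 features of the table, or among the 7110 that remained once ribosomal RNA and spike-in features were set aside. By role, 3 encode core proteins of box C/D small nucleolar particles, 4 those of box H/ACA particles, 14 act in small subunit assembly, 3 in pre-rRNA processing in general, 20 in large subunit assembly, and 2 in export and maturation of the large subunit. RNA was taken from haploid MATa cells of the W303-1A background in a study of condensin, the complex that structures chromosomes.

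There were 2 strains and 2 arrests. In the control strain, Control (Ycg1-3PK), the condensin subunit Ycg1 carried an epitope tag at its own locus (YCG1-3PK::K.lactis TRP1). In ycg1Degron1, the gene was placed behind the methionine-repressible MET3 promoter and carried an auxin-inducible degron (pMET3-YCG1-3PK-3miniAID::KANMX6), and the plant ubiquitin ligase subunit OsTIR1 was expressed from the ADH1 promoter (ADE2::pADH1-OsTIR1-9Myc). Both strains were grown at 25 °C and treated alike. Cells were held in G1 with α-factor, the mating pheromone, for 1.5 h, shifted from synthetic medium without methionine to rich medium with 88 μg/ml auxin, and kept there in α-factor for 2 h before the G1 sample was taken. The same cultures were then released into rich medium with auxin and nocodazole, which blocks spindle assembly, and sampled again as M cells 2 h later. Each RNA sample gave a polyA-selected library and a total RNA library, so that 24 libraries fall in 4 groups of 6 (G1 polyA, M polyA, G1 total and M total), each with 3 biological replicates of each strain.

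The columns of the table name the arrest, the library type, the replicate and a code, 14 or 18, which no sample label explains. The titles vary by strain besides these, so the code is taken to separate the strains, but neither code is assigned to a strain and no direction below is attributed to loss of Ycg1. YCG1 itself, the targeted gene, measured 20.7, 17.0 and 15.2 CPM (counts scaled to a common library size) in the G1 polyA libraries of code 14 and 108, 91.3 and 105 CPM in those of code 18. In M polyA libraries it measured 17.7, 16.02 and 14.4 CPM in code 14 and 85.4, 75.7 and 76.8 CPM in code 18. In polyA RNA, YCG1 was therefore higher in every library of code 18 than in every library of code 14 at both arrests, and these values were not used to name the codes. In total RNA the difference, code 18 minus code 14 on the log2 scale, was 0.58 in G1 (SE 0.230, not called), where the codes overlapped, and 1.56 in M (SE 0.265, called).

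Ribosome synthesis begins in the nucleolus, where RNA polymerase I transcribes ribosomal DNA into a long precursor RNA. Small nucleolar particles guide its methylation (box C/D) and pseudouridylation (box H/ACA), and successive assembly factors, among them helicases, GTPases and RNA-binding proteins, cut and fold it into the small and large subunits. In budding yeast the genes for these factors are known to be regulated together with growth and nutrients, and many carry a pair of promoter elements, PAC, which is bound by the repressors Dot6 and Tod6, and RRPE, which is bound by the repressor Stb3.

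Both elements were searched as plain letters on both strands of the 250 bases before each start codon. The PAC core was searched as GATGAG, which in the opposite orientation is written with the letters CTCATC, and RRPE as AAAATTTT, which reads the same on both strands, and the letters of one cannot overlap those of the other. The 30-base stretches below belong to some of the genes named in the results and show how the elements can be laid out. They were read 5′ to 3′ along the strand of the gene from the RefSeq sequence of build R64, and capitals mark the matches.
MAK16 (YAL025C), chrI:101257-101286, minus strand: tttttgAAAAATTTTccGATGAGcttttga
KRR1 (YCL059C), chrIII:23441-23470, minus strand: gAAAATTTTcaaaaaaaagagatGATGAGg
NOP1 (YDL014W), chrIV:427137-427166, plus strand: gAAAAATTTTTcaaattggaaagCTCATCt
NUG1 (YER006W), chrV:162602-162631, plus strand: AAAATTTTcgagcgaggcGATGAGATGAGc
NOP7 (YGR103W), chrVII:695275-695304, plus strand: gAAAATTTTTtgcGATGAGATGAGATGAGa
SDA1 (YGR245C), chrVII:982204-982233, minus strand: aatgAAAATTTTaaaCTCATCTCATCgcag
MPP10 (YJR002W), chrX:438770-438799, plus strand: cagAAAATTTTcaattttgcGATGAGctct
EBP2 (YKL172W), chrXI:125630-125659, plus strand: actaCTCATCgggactgAAAATTTTTtatt
DRS1 (YLL008W), chrXII:131591-131620, plus strand: AAAAATTTTcaaaaaatgcGATGAGATGAG
RLP7 (YNL002C), chrXIV:627222-627251, minus strand: ctgggaagcGATGAGATGAGaaaagtctaa
BRX1 (YOL077C), chrXV:186859-186888, minus strand: gactgAAAAATTTTagatgCTCATCgcgat
All of these stretches lie upstream of a coding sequence, between 62 (KRR1) and 227 (NOP1) bases before the start codon. In DRS1, NUG1, RLP7 and, in the opposite orientation, SDA1 the PAC core is repeated head to tail with a shared base, and in NOP7 it occurs in 3 overlapping copies.

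The PAC core was present in 43 of the 46 promoters (93.5%), against 17.0% of all 6001 promoters of the same length. RRPE was present in 39 (84.8%), against 8.65% of all promoters. Both were present in 37 (80.4%), against 4.08%, and in 31 genes both fell within a single 30-base window. A longer form of PAC, GCGATGAG, was found in 25 (54.3%, against 3.83%), and a longer form of RRPE, AAAAATTTT, in 34 (73.9%, against 6.73%). Only UTP22 (YGR090W), whose product acts in the small subunit processome, held neither. The median match lay 120 bases before the start codon for the PAC core and 143 bases for RRPE. Among other genes of the pathway, 90.4% of 73 other assembly factors and 83.3% of 24 RNA polymerase I and III genes held the PAC core, but 10.2% of 137 ribosomal protein genes did. These shares describe letters in a window and not sites bound in these cells.

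**Figure D1:**
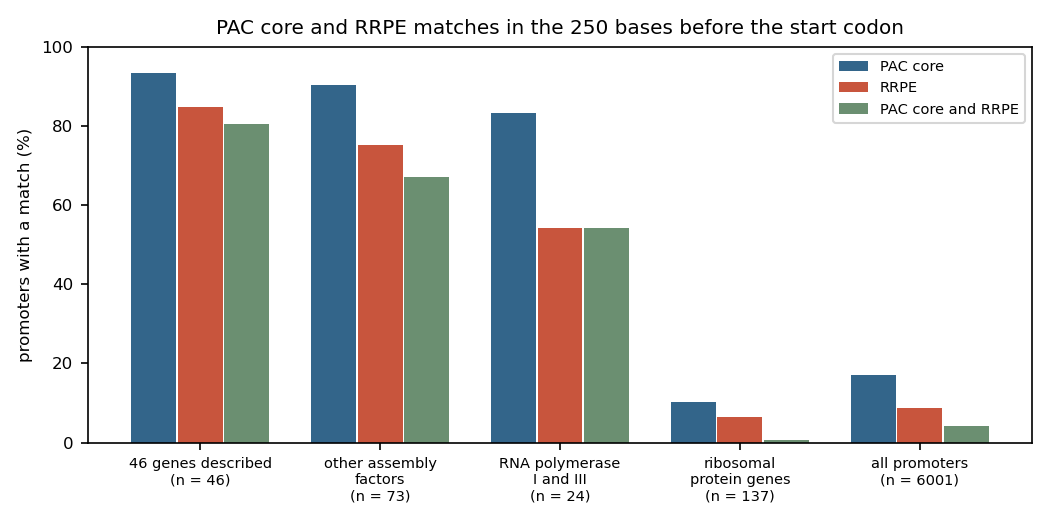
The percentage of promoters (250 bases before the start codon) holding the PAC core, RRPE or both is plotted as bars for the 46 genes, 3 lists of related genes and all 6001 promoters. The 46 genes stand at 93.5% for the PAC core and 84.8% for RRPE, against 17.0% and 8.65% of all promoters.

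The depth behind these values differs between library types. The polyA libraries held 9644013 to 21666221 estimated counts outside ribosomal RNA and spike-ins, of which 180154 to 502195 fell on the 46 genes. Total libraries were 95.5% to 96.0% ribosomal RNA, which left 564074 to 929935 counts, 8135 to 14339 of them on the 46 genes, so that values from total RNA rest on far fewer reads. The arrests were checked on fixed marker lists in polyA libraries. The 10 pheromone-induced genes summed to 7229 to 14882 CPM in G1 and 441 to 738 CPM in M, all 10 being lower in M, and the 10 mitotic genes summed to 307 to 405 CPM in G1 and 1280 to 1434 CPM in M, all 10 being higher. Because RNA was taken from whole cultures, fewer cells with an RNA and less of it per cell cannot be told apart. Nor can the arrest be told apart from the later sampling, the passage through S phase or the change in drug.

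Levels were compared between genes as mean CPM per kb of coding sequence in polyA libraries. The 46 genes spanned 789 CPM per kb for NOP1, the fibrillarin methyltransferase of box C/D particles, to 69.2 CPM per kb for UTP20 (YBL004W), a very large small subunit factor. The highest in the other roles were NSR1 (YGR159C), the yeast nucleolin, at 721 CPM per kb, CBF5 (YLR175W), the pseudouridine synthase of box H/ACA particles, at 657, EBP2, a large subunit factor, at 539, TIF6 (YPR016C), which keeps the subunits from joining, at 346, and KRR1, a small subunit processome protein, at 216. In total these genes supplied 1.52% to 2.32% of the polyA counts used, and 1.14% to 1.61% of the total RNA counts used.

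**Figure D2:**
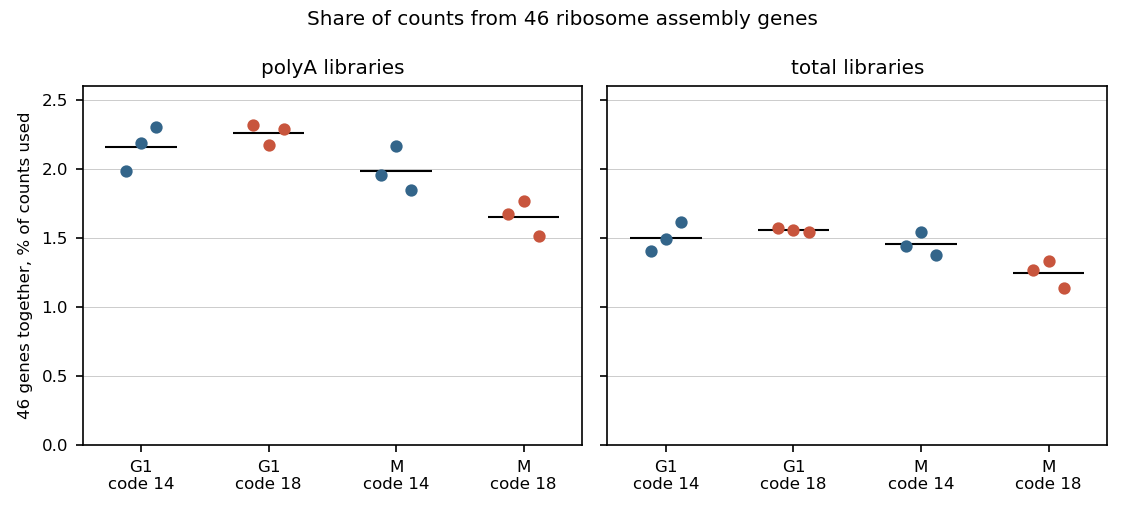
The share of counts used that fell on the 46 genes (percent, axis from 0) is plotted for each library, with 3 points per arrest and code and a line at their mean, for polyA (left) and total (right) libraries. The 3 M libraries of code 18 are lowest in both panels, at 1.52% to 1.77% in polyA and 1.14% to 1.33% in total RNA.

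The first comparison asked how expression of these genes differed between the arrests in polyA RNA. Averaged over both codes, 42 of the 46 genes were lower in M than in G1 and none was higher (edgeR quasi-likelihood test, adjusted p under 0.05), where 25.4% of all 5832 features tested were lower and 25.7% higher. Their median difference was -0.33 on the log2 scale, with a median of 0.01 over all features. The 4 genes not called were NOP1, NOP10, RRP9 and TIF6. The differences were modest, since only 4 genes were more than 1.5-fold lower. In 10 of the 46 genes all 6 M libraries lay below all 6 G1 libraries, against 9.48% of all features.

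All 20 large subunit factors were lower, with a median of -0.40. RLP7, a ribosomal-protein-like factor that binds the precursor RNA, measured 321, 385 and 409 CPM in G1 in code 14 and 384, 377 and 430 CPM in code 18. In M it measured 248, 284 and 242 CPM in code 14 and 207, 214 and 199 CPM in code 18, so that every M library was below every G1 library. Its difference was the largest of the 46 genes, -0.73 (SE 0.068, adjusted p 3.24e-06, edgeR).

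SPB4 (YFL002C), a DEAD-box RNA helicase, measured 181, 189 and 198 CPM in G1 in code 14 and 181, 180 and 185 CPM in code 18. In M it measured 132, 131 and 122 CPM in code 14 and 111, 108 and 99.2 CPM in code 18, again without overlap, a difference of -0.67 (SE 0.045). NOP16 (YER002W), a constituent of early large subunit particles, varied more among replicates. It measured 245, 346 and 325 CPM in G1 and 222, 296 and 213 CPM in M in code 14, where the arrests overlapped. In code 18 it measured 374, 337 and 385 CPM in G1 and 187, 200 and 161 CPM in M, where they did not, and the averaged difference was -0.66 (SE 0.104).

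MAK16, EBP2, SDA1, NOP4, NUG1 and DRS1 were lower in M by 0.43 to 0.52 on the log2 scale. NUG1, a nuclear GTPase, was even among replicates, at 374, 381 and 405 CPM in G1 and 284, 319 and 297 CPM in M in code 14, and at 363, 351 and 352 CPM in G1 and 248, 262 and 235 CPM in M in code 18. EBP2, which is needed for processing of the large subunit precursor, was uneven. Its code 14 libraries overlapped between the arrests, at 581, 851 and 743 CPM in G1 and 605, 793 and 578 CPM in M, whereas its code 18 libraries did not, at 923, 752 and 960 CPM in G1 and 507, 569 and 445 CPM in M. The difference was -0.47 for EBP2 (SE 0.112) and -0.44 for NUG1 (SE 0.047).

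Of the small subunit factors 13 of 14 were lower, with a median of -0.34. MPP10, which joins the small subunit processome together with Imp3 and Imp4, measured 292, 321 and 345 CPM in G1 in code 14 and 329, 327 and 333 CPM in code 18. In M it measured 239, 255 and 219 CPM in code 14 and 187, 194 and 180 CPM in code 18. Every M library was below every G1 library, and the difference was -0.62 (SE 0.054), while those of its partners were -0.25 for IMP3 and -0.34 for IMP4. The exception among the 14 was RRP9 (YPR137W), a protein of the U3 particle, at 224 to 265 CPM in G1 and 196 to 269 CPM in M, a difference of -0.10 (SE 0.065, adjusted p 0.24, edgeR).

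The smaller groups had medians nearer to 0. All 3 general processing factors were lower, with a median of -0.23, as were 3 of the 4 box H/ACA core genes (-0.24) and 2 of the 3 box C/D core genes (-0.16). NOP1 measured 721 to 900 CPM in G1 and 680 to 838 CPM in M, ranges that overlapped, with a difference of -0.06 (SE 0.060, adjusted p 0.39, edgeR). TIF6 measured 243 to 287 CPM in G1 and 220 to 275 CPM in M, a difference of -0.14 (SE 0.054, adjusted p 0.052, edgeR) that was called under several of the other settings tried. The other gene of its group, NMD3 (YHR170W), the export adaptor of the large subunit, was lower by 0.30.

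**Figure D3:**
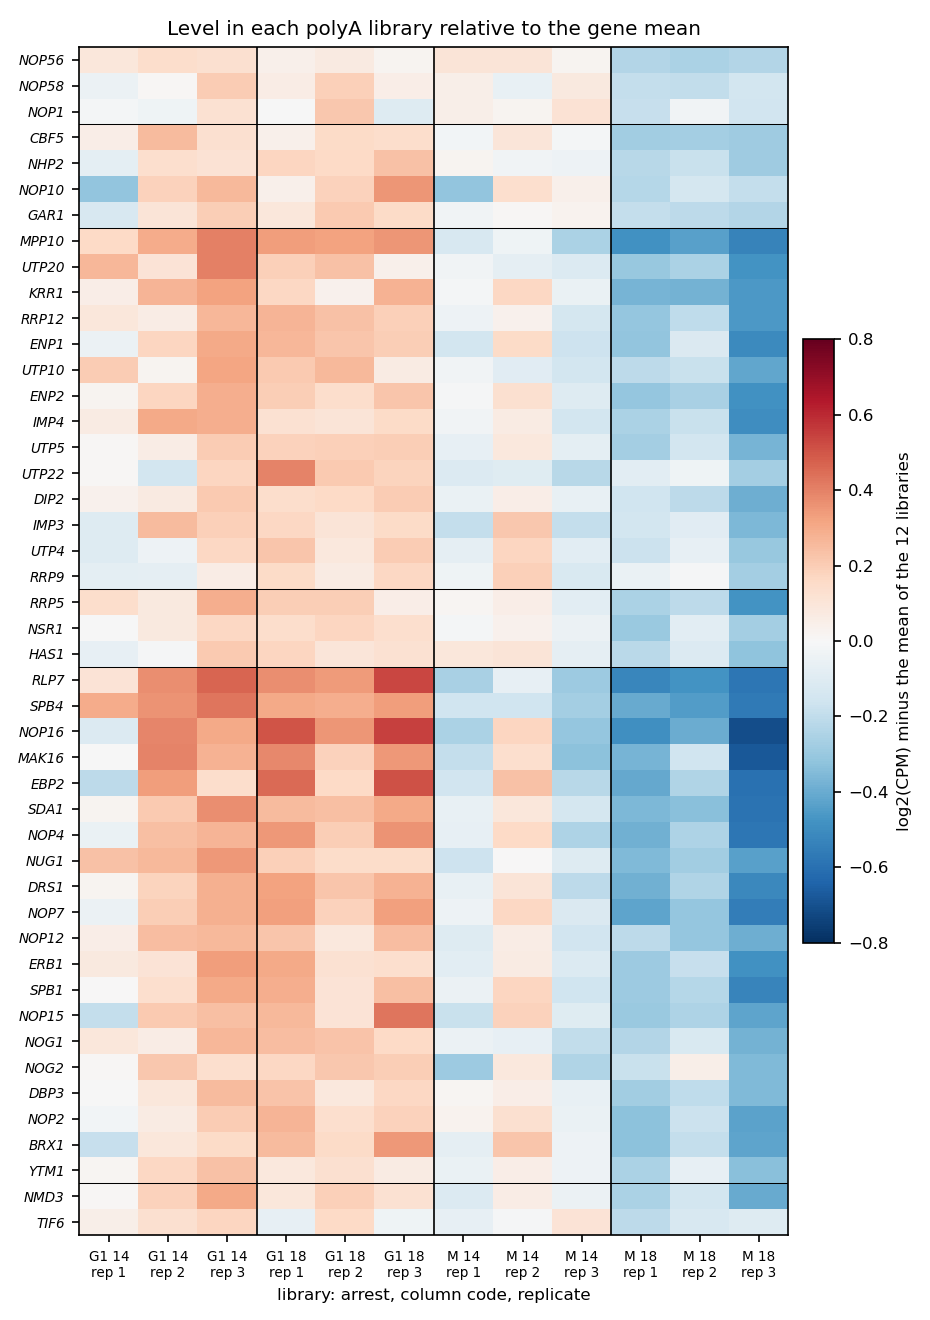
Each row is a gene, grouped by role, and each column a polyA library (arrest, code, replicate), coloured by log2 CPM minus the mean of the gene over the 12 libraries. In 36 of the 46 genes every M library of code 18 lies below every M library of code 14, and replicate 1 of G1 code 14 was the lowest of its 3 in 39 of the 46 genes.

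The difference between the arrests was also set beside promoter content. The 37 genes with both elements had a median difference of -0.34 between the arrests, the 6 with the PAC core alone -0.31, the 2 with RRPE alone -0.27, and UTP22, with neither, -0.27. NOP1, whose promoter holds both, hardly differed, while NOP16, with the PAC core alone, was among the lowest. No test was made of these medians.

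Within the codes, the difference between the arrests was seen in more genes in code 18. There, 42 of the 46 genes were lower in M, with a median of -0.46, where 18.8% of all features were lower, and in 45 genes all 3 M libraries lay below all 3 G1 libraries (25.8% of all features). In code 14, 9 genes were lower, with a median of -0.16, where 17.2% of all features were lower, and in 10 genes every M library lay below every G1 library (21.9% of all features). The 9 genes were IMP4, MPP10, NOG1, NOP12, NUG1, RLP7, SPB4, UTP10 and UTP20. For code 14 these counts lie near the background. They also rested on single libraries, since 5 genes were lower in code 14 without replicate 3 of G1 code 14 or without replicate 3 of M code 14, whereas in code 18 leaving out any library gave 39 to 43. The code 14 median was -0.24 without replicate 1 of G1 code 14. Scaled by spike-ins, the order of the codes turned, with medians of -0.63 in code 18 and -0.89 in code 14, and with 0 and 2 genes called lower. The share of spike-ins varied among replicates, from 0.0213% to 0.0518% of all counts in G1 polyA code 14, so this order is uncertain. The difference between the codes in this respect was tested as an interaction.

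**Figure D4:**
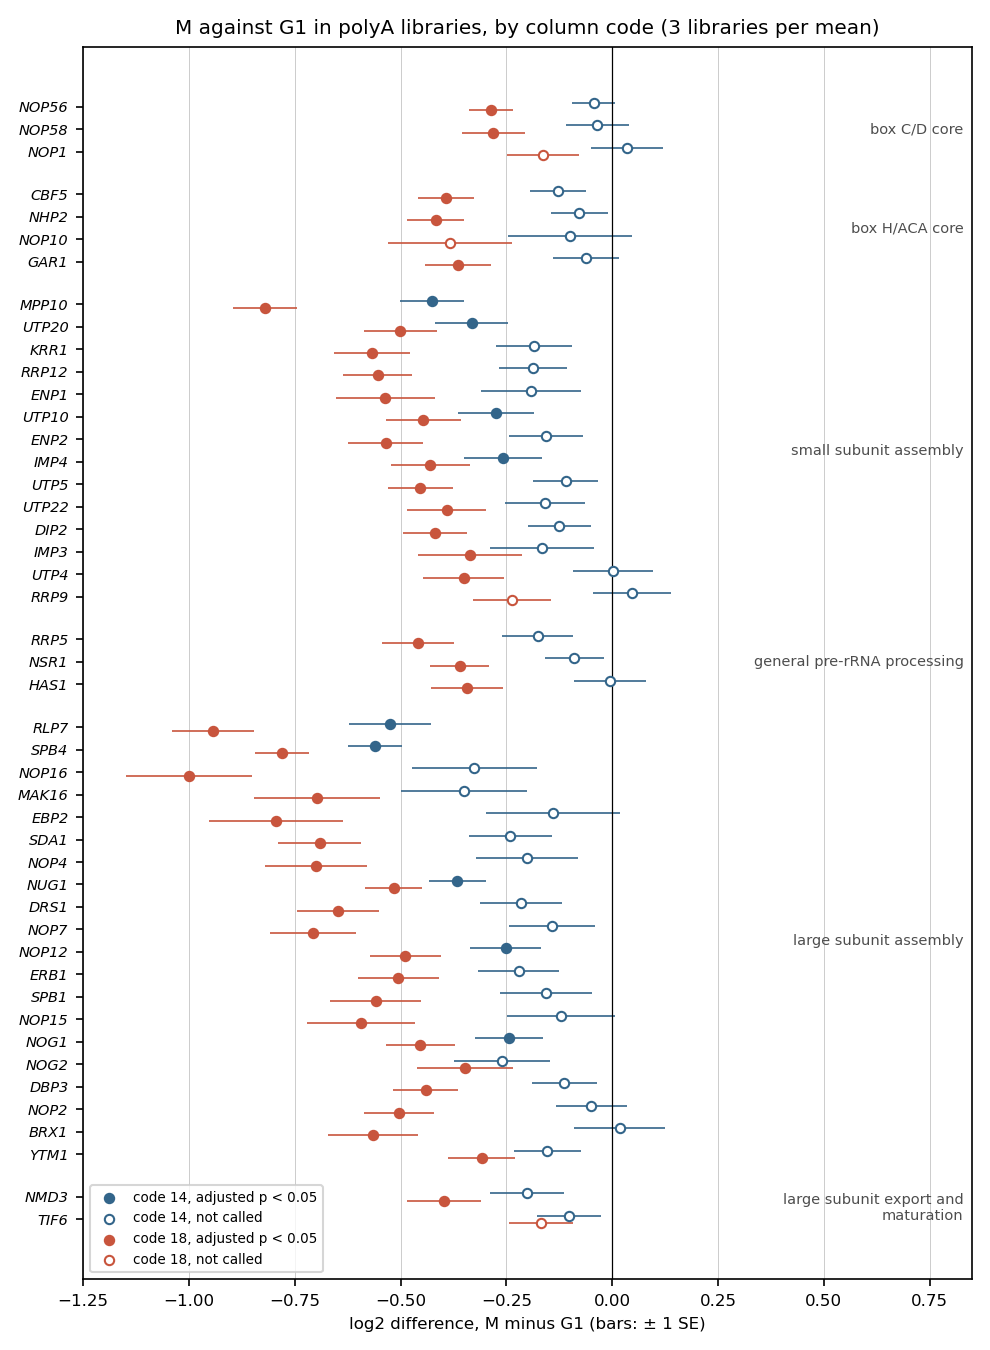
The log2 difference M minus G1 in polyA libraries is plotted for each gene, grouped by role, in code 14 (blue) and code 18 (red), with bars of 1 SE and filled points at adjusted p under 0.05. Code 18 lies left of code 14 for all 46 genes, with 42 filled points in code 18 and 9 in code 14.

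In G1, none of the 46 genes was called between the codes in polyA RNA in either direction, where 8.33% of all features were lower in code 18 and 7.53% higher, and the median difference, code 18 minus code 14, was 0.06. The 6 genes of largest difference, EBP2 (0.28), NOP16 (0.26), UTP22 (0.24), BRX1 (0.23), NOP15 (0.17) and UTP4 (0.16), all stood higher in code 18, with adjusted p of 0.10 or more (edgeR). At an unadjusted p under 0.05 there was 1 gene, UTP22, where 1744 of 5832 features were, and DESeq2 called 0 of the 46. Replicate 1 of G1 code 14 was low for these genes, at 581 CPM for EBP2 against 743 and 851 CPM in the other two of that code. Leaving out replicate 3 of G1 code 14 gave a call for UTP22 and a median of 0.10, and leaving out replicate 1 of G1 code 14 a median of -0.0042.

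In M the codes did differ. Of the 46 genes, 15 were lower in code 18 and none was higher, where 5.54% of all features were lower and 6.41% higher, and the median difference was -0.27. The 15 comprised 8 large subunit factors (DBP3, DRS1, NOP2, NOP7, NUG1, RLP7, SDA1 and SPB4), 4 small subunit factors (ENP2, KRR1, MPP10 and RRP12), and RRP5, CBF5 and NOP56. In 36 genes all 3 libraries of code 18 lay below all 3 of code 14 (16.6% of all features). KRR1 measured 200, 226 and 194 CPM in code 14 and 156, 155 and 147 CPM in code 18, without overlap, a difference of -0.44 (SE 0.090, adjusted p 0.00862, edgeR). NOP7, the yeast pescadillo, which works in a complex with Erb1 and Ytm1, measured 807, 930 and 764 CPM in code 14 and 619, 668 and 563 CPM in code 18, a difference of -0.44 (SE 0.102). SDA1, a factor of late large subunit maturation, measured 459, 510 and 435 CPM in code 14 and 373, 380 and 318 CPM in code 18, a difference of -0.39 (SE 0.098). NOP16 (-0.41), EBP2 (-0.38) and NOP4 (-0.36) differed by a like amount but were not called.

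The count in M depended on which libraries were in the fit. It was 2 without replicate 2 of M code 14, which was the highest of its 3 libraries in 36 of the 46 genes, 3 without replicate 3 of M code 18, which was the lowest in 40, 5 without replicate 1 of M code 18, and 8 without replicate 1 of M code 14. The sign of the median also depended on the scale, being 0.18 when libraries were scaled by spike-ins. The comparison of the codes cannot be told apart from strain differences present before auxin was added, an unequal response to the change of medium, or the lower copy number of ribosomal DNA that the study describes in its strains.

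That interaction was fitted with no block for the cultures sampled at both arrests, and blocked fits are given at the end. None of the 46 genes was called in it in polyA RNA, where 1.32% of all features were called lower. At an unadjusted p under 0.05 there were 29 of the 46, all negative, where 1247 of 5832 features were, 658 of them negative. DESeq2 called 12 of the 46 lower, a count given here without its share over all features, so it cannot be set against a background. The difference, M minus G1, was more negative in code 18 for 46 of 46 genes, with a median interaction of -0.30, and negative for 3096 of 5832 features. The genes share libraries, so this is no count of independent results. The 4 of largest size were NOP16 (-0.67, SE 0.208), EBP2 (-0.65, SE 0.223), BRX1, a large subunit factor with a Brix domain (-0.58, SE 0.151), and NOP7 (-0.56, SE 0.144, adjusted p 0.0513, edgeR). For BRX1, the G1 libraries measured 292, 353 and 369 CPM in code 14 and 396, 370 and 422 CPM in code 18, and the M libraries 316, 388 and 323 CPM in code 14 and 265, 291 and 248 CPM in code 18. The order of the codes was thus opposite in the arrests for BRX1, and in each arrest the codes did not overlap. The count became 5 without replicate 3 of G1 code 14, 3 without replicate 3 of M code 14, 2 without replicate 2 of G1 code 18 and 1 without replicate 2 of M code 18.

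In total RNA, made from the same RNA samples, fewer genes passed the test. Averaged over the codes, 27 of the 46 were lower in M and none was higher, where 11.7% of all 4960 features tested were lower and 12.1% higher, with a median of -0.27. All 27 were among the 42 called in polyA RNA, and no gene was called in opposite directions. They comprised 18 of the 20 large subunit factors, 8 of the 14 small subunit factors and NOP56. MPP10 measured 213, 196 and 199 CPM in G1 in code 14 and 188, 202 and 207 CPM in code 18, against 175, 152 and 144 CPM and 110, 129 and 123 CPM in M, a difference of -0.55 (SE 0.080). RLP7 differed by -0.58 (SE 0.097), MAK16 by -0.45 (SE 0.097) and NUG1 by -0.42 (SE 0.075). In 6 genes every M library lay below every G1 library (4.25% of all features).

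Within code 18, 27 genes were lower in M in total RNA, where 7.16% of all features were, and within code 14, 3 genes, MPP10, MAK16 and NUG1, where 7.16% were. The code 18 count was 17 without replicate 1 of G1 code 18 and 13 without replicate 3 of M code 18, and the code 14 count 1 without replicate 3 of G1 code 14. In code 18, every M library lay below every G1 library in 36 genes (16.4% of all features) and in code 14 in 10 genes (14.9%). In code 14, KRR1 and NOP58 lay above in every M library, 2 of 46 genes, where 796 of 4960 features did. In polyA RNA of code 14 the arrests overlapped for both genes.

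Between the codes in total RNA, 2 genes were higher in code 18 in G1 and none was lower, where 4.54% of all features were higher and 4.07% lower. UTP22 measured 418, 480 and 470 CPM in code 14 and 562, 589 and 623 CPM in code 18, a difference of 0.37 (SE 0.089, adjusted p 0.0109, edgeR). NSR1 measured 542, 558 and 664 CPM in code 14 and 732, 737 and 733 CPM in code 18, a difference of 0.32 (SE 0.096, adjusted p 0.0458, edgeR). Neither pair of groups overlapped, although a share of 2 in 46 is near the background, and the count rested on single libraries. It was 4 without replicate 3 of G1 code 14, 0 without replicate 1 of G1 code 14 or replicate 3 of G1 code 18, and 1 without replicate 2 of G1 code 14, replicates 1 or 2 of G1 code 18, replicate 1 of M code 14 or replicates 2 or 3 of M code 18.

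In M, 4 genes were lower in code 18 in total RNA and none was higher, where 2.02% of all features were lower and 1.71% higher: KRR1 (-0.59, SE 0.156), NOP12 (YOL041C), an RNA-binding large subunit factor (-0.48, SE 0.118), NOP7 (-0.40, SE 0.106) and RRP12 (YPL012W), a factor needed for export of both subunits (-0.38, SE 0.079). RRP12 measured 622, 602 and 564 CPM in code 14 and 469, 458 and 448 CPM in code 18. KRR1 measured 130, 125 and 130 CPM in code 14 and 84.9, 93.1 and 77.6 CPM in code 18. In these genes, and in 20 of the 46 in all, every library of code 18 lay below every library of code 14 (10.5% of all features). The count was 1 without replicate 1 or 2 of M code 14 or replicate 1 or 3 of M code 18, and 2 without replicate 2 of M code 18 or of G1 code 18.

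The interaction in total RNA was called in 4 genes, all with a more negative difference in code 18, where 1.35% of all features were called lower. These were KRR1 (-0.93, SE 0.217), NOP58 (YOR310C), a box C/D core protein (-0.51, SE 0.117), RRP12 (-0.49, SE 0.111) and RRP5 (YMR229C), an RNA-binding protein needed for both subunits (-0.49, SE 0.125). KRR1 measured 90.05, 107 and 112 CPM in G1 in code 14 and 161, 119 and 114 CPM in code 18, so that the codes lay in opposite order in G1, narrowly, and in M. In polyA RNA its G1 libraries overlapped between the codes, at 209, 244 and 252 CPM in code 14 and 226, 206 and 245 CPM in code 18. RRP5 measured 916, 1049 and 1180 CPM in G1 in code 14 and 1177, 1204 and 1184 CPM in code 18, and 1194, 1239 and 1121 CPM and 909, 1022 and 941 CPM in M. The interaction was negative for 42 of the 46 genes, and for 2428 of 4960 features. The count was 10 without replicate 3 of G1 code 14 and 0 to 2 without any of the other 11 libraries in turn.

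The library types themselves were compared in a single fit of all 24 libraries. Relative to all features, polyA libraries held more of most of these RNAs, 29 of the 46 being higher and 5 lower in G1, where 17.6% of all 5839 features were higher and 15.8% lower. In M, 22 were higher and 5 lower, where 12.7% and 14.3% were. The median difference, polyA minus total, was 0.29 in G1 and 0.18 in M. This fit had no block for the RNA sample that a polyA and a total library share. With such a block, by replicate number within arrest and code, the medians were 0.29 in G1 and 0.19 in M. The same 5 genes were lower in both arrests, and they are the 5 with the longest coding sequences of the 46. UTP20, of 7482 bp, differed by -1.16 in G1 (SE 0.065) and -1.27 in M (SE 0.065). RRP5, of 5190 bp, differed by -0.86 and -1.12, and UTP10, of 5310 bp, by -0.65 and -0.67. UTP22, of 3714 bp, and RRP12, of 3687 bp, differed by -0.31 and -0.19 in G1.

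At the other end, EBP2 differed by 0.97 in G1 (SE 0.107) and 0.75 in M, and NOP10, the shortest gene at 177 bp, by 0.88 (SE 0.147) and 0.49. The median coding length was 5190 bp for the genes lower in polyA libraries in G1, 1452 bp for those higher and 1525.5 bp for the 12 not called. Length thus set apart the lower genes, but not the higher genes from those not called. When libraries were scaled by their totals instead, the median was 0.75 in G1 and 0.65 in M, and 3 genes were lower in each arrest, so the position of the whole set on this scale depends on the scaling.

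**Figure D5:**
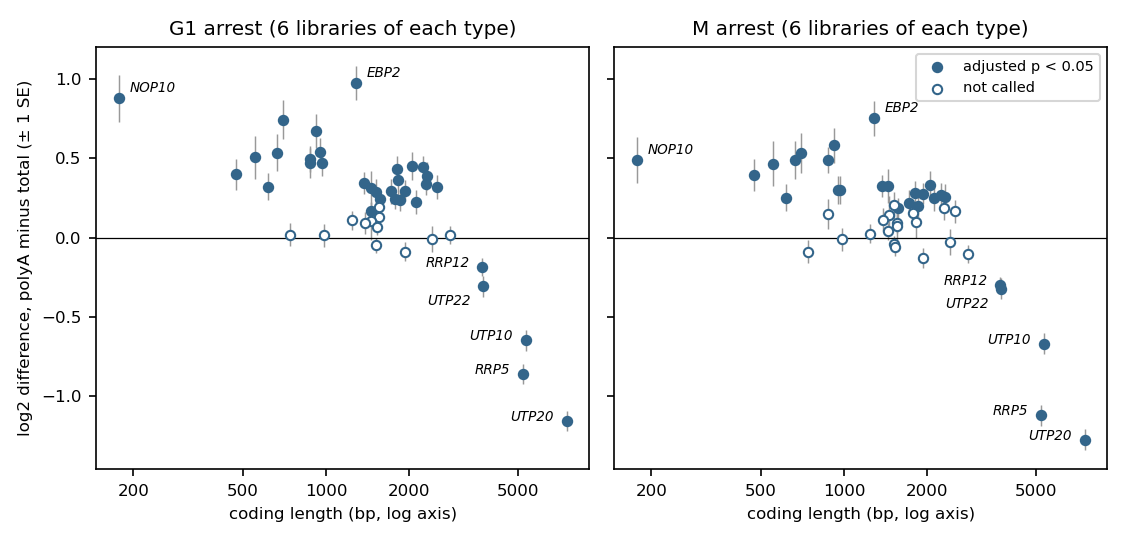
The log2 difference polyA minus total is plotted against coding length (bp, log axis) for the 46 genes in G1 (left) and M (right), with bars of 1 SE and filled points at adjusted p under 0.05. The 5 longest genes, from 3687 to 7482 bp, lie below 0 in both panels, and EBP2 and NOP10 are among the highest.

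Other genes of ribosome synthesis were counted in the same fits of polyA RNA. Of 73 other assembly factors, 67 were lower in M than in G1 (median -0.31), and of 24 RNA polymerase I and III genes 16 were lower (median -0.23). Of 137 ribosomal protein genes, 35 were higher and 1 lower (median 0.10), a share of higher genes near that of all features. Their median stood above that of all features where the median of the assembly genes stood below it. Scaled by spike-ins, both medians were negative (-0.32 and -0.77 for the ribosomal protein genes and the 46 genes). That scaling moves all features by nearly the same amount, so it could hardly change this order. In M, 28 of the 73 other assembly factors and 5 of the 24 polymerase genes were lower in code 18, with 3 ribosomal protein genes higher. In total RNA, 94 of the 137 ribosomal protein genes were higher in code 18 in G1, and none in M. Between the arrests in total RNA, 75 were higher in M within code 14 (median 0.29), whereas none was higher and 3 were lower within code 18 (median -0.09). Among 10 regulators of these genes, TOD6, the PAC-binding repressor, was lower in M by 0.64 (SE 0.096), IFH1, a coactivator of ribosomal protein genes, by 0.34, and SFP1, a growth-dependent activator, by 0.20. HMO1, an HMG-box protein of rRNA and ribosomal protein gene promoters, was higher by 0.22. Its difference was 0.0034 in code 14 (not called) and 0.44 in code 18 (called). Tested directly, its interaction was 0.43 in polyA RNA (SE 0.119, adjusted p 0.064, edgeR) and 0.36 in total RNA, neither called. HMO1 was also higher in code 18 than in code 14 in M, by 0.78 in polyA and 0.77 in total RNA. In G1, the regulators called between the codes in polyA RNA were HMO1 (0.35) and CRF1 (-1.82, SE 0.468). In G1 total RNA it was SCH9 (-0.42, SE 0.099), which was not called in polyA RNA. Between the arrests in polyA RNA, the other PAC-binding repressor, DOT6, differed by -0.04 and STB3, which binds RRPE, by 0.00, neither called.

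Markers of the arrest differed between the codes as well. In polyA RNA 7 of the 10 pheromone-induced genes were lower in code 18 in G1 and 6 in M, and their summed level in M was 650 to 738 CPM in code 14 and 441 to 501 CPM in code 18. Of the 10 mitotic genes, 4 were lower in code 18 in G1 (median -0.29) and 1 was higher in M. Between the arrests, 6 of 12 general stress response genes were higher in M and 1 was lower. Within code 18, 7 were higher (median 0.62), and within code 14 none was higher and 1 was lower (median -0.11). Tested directly as an interaction, none of the 12 was called. Between the codes, 6 of the 12 were lower in code 18 in G1 and 4 in M. Their summed level in M was 1190 to 1839 CPM in code 14 and 1345 to 1978 CPM in code 18. The part of arrest or of stress in the results for the 46 genes was not tested.

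The differences above are relative to other RNAs. The polyA libraries held 2193 to 9018 counts of ERCC spike-in RNAs, which allow another scale. On it, the median of all features between M and G1 was -0.41, and that of the 46 genes -0.77, with all 46 below the median of all features. The median of the 46 genes in M between the codes changed sign, from -0.27 by the main scaling to 0.18 by spike-ins, where the median of all features was 0.42 and 44 of the 46 genes lay below it. The median interaction likewise changed sign, from -0.30 to 0.24, where the median of all features was 0.48 and all 46 genes lay below it, and the median between the codes in G1 moved from 0.06 to -0.02. Relative to other RNAs the genes thus stood low in code 18 in M. A change of scaling moves all features by nearly the same amount. This position could therefore hardly differ by spike-ins and is no separate support. The median per unit of spike-in had the opposite sign. On that scale the sign is uncertain, because the share of spike-ins varied among replicates. It was 0.0518%, 0.0452% and 0.0213% of all counts in G1 polyA code 14 and 0.0477%, 0.0773% and 0.0471% in M polyA code 14. In code 18 it ranged from 0.0291% to 0.0466% in G1 and from 0.0363% to 0.0471% in M.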

How the data were processed

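The authors trimmed reads with cutadapt 1.9.1, aligned them with STAR 2.5.2a to build R64 and deposited RSEM 1.3.0 expected counts per feature, which estimate reads and need not be whole. A further 24 columns of TPM were not used here. The 92 spike-in and 16 ribosomal RNA features were set aside, and expected counts were rounded. Libraries of each type were fitted together (edgeR 4.0.16 in R 4.3.3, TMM scaling, filterByExpr, a mean per arrest and code, quasi-likelihood test, Benjamini-Hochberg adjustment over all features, called at 0.05). All 46 genes passed the filter in both types. CPM values are TMM-scaled, and SE is the log2 difference over the square root of F. Intervals cover the spread between biological replicates only. The genes and lists were chosen with earlier results of these data known. Genes were named by rule: the 10 largest and 3 smallest differences between arrests, the 6 largest between codes per arrest, the 4 largest interactions, the highest level per role, and all members where 5 or fewer were called. TOD6, IFH1, SFP1, HMO1, CRF1, SCH9, DOT6, STB3 and IMP3, IMP4 and NMD3 were named after their values were seen. Promoters were cut from the RefSeq genome. Alternatives were DESeq2 1.42.0, other scalings, no filter, a 1.5-fold threshold, a replicate block and leaving out each library.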

Additional observations from a re-analysis of the deposited data

Results flagged for a closer look

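In all, 108 groups of 6 libraries were checked for a library far from the others. Each held 1 of 26 named genes, or the summed share of the 46, at an arrest in a library type. In 2 groups a library lay far from the other 5. Chance flags about 1 in 20 groups when all 6 libraries share a single level. Each group here pooled both codes, which differed for many genes, so that rate need not apply. NOP15 measured 108 CPM in replicate 2 of G1 total code 18, against 135 to 151 CPM in the other libraries of G1 total RNA. RLP7 measured 162 CPM in replicate 2 of M total code 14, against 123 to 135 CPM in the other libraries of M total RNA.

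The difference between the arrests differed between the codes in total RNA for KRR1 (an interaction of -0.93), NOP58 (-0.51), RRP12 (-0.49) and RRP5 (-0.49), by edgeR's test of the interaction itself. None of these was called in polyA RNA.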

How the results depend on the processing

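Leaving out each library in turn, 38 to 44 genes were lower in M in polyA RNA and 18 to 27 in total RNA. Within code 14 it gave 5 to 13 genes in polyA and 1 to 3 in total RNA, and within code 18, 39 to 43 and 13 to 28. Between the codes, it gave 0 to 1 genes higher in G1 in polyA and 0 to 4 in total RNA, and 2 to 18 lower in M in polyA and 1 to 6 in total RNA, with interactions of 0 to 5 and 0 to 10. PolyA libraries were higher than total in 25 to 30 genes in G1 and 15 to 24 in M.

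At a threshold of 1.5-fold (glmTreat), 0 genes were called in M against G1 in either library type, within code 14 in either, within code 18 in total RNA, between the codes in G1 in total RNA or in M in either, or for the interaction in total RNA, and 4 were lower within code 18 in polyA RNA. Scaled by spike-ins, polyA RNA gave 13 genes lower in M, 2 within code 14 (median -0.89), 0 within code 18 (median -0.63) and 0 between the codes in M, where the differences of KRR1 (0.0226), NOP7 (0.0292) and SDA1 (0.0627) reversed. By DESeq2, 12 genes had an interaction in polyA RNA, 25 and 1 were lower in code 18 in M in polyA and total RNA, 1 was higher in G1 in total RNA, and 14 and 1 were lower within code 14. Scaling by totals gave 1 gene between the codes in G1 in total RNA, 2 in M, 5 within code 14 in polyA RNA and 42 higher in polyA than in total libraries in M. With G1 libraries alone, 1 gene was higher in code 18 in total RNA. These counts stand without their shares over all features, so they cannot be set against a background, and the cause was not tested. For single genes with a library left out, 709 values kept direction and call, 96 lost the call and 11 gained it. Under other settings, 503 kept both, 55 lost the call, 12 gained it and 3 reversed.

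Replicate numbers are shared by the groups, but no label says that a number marks a culture, and same-numbered G1 and M libraries of a code correlated at -0.20 to 0.51 in polyA RNA. With a replicate block, 43 genes were lower in M in polyA RNA and 28 in total RNA, 14 and 4 between the codes in M, and 1 gene had an interaction in polyA RNA. A block by replicate number within code, as if it marked a culture, gave polyA medians of -0.33 between the arrests and -0.30 for the interaction. Spike-in scaling was not run for total RNA, whose libraries held 191 to 646 spike-in counts. Its 564074 to 929935 usable counts limit what could be detected there.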
